A study of Mus musculus with 2 samples.

Results

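The cells described here were the immune cells of the mouse fetal ovary at E15.5 (embryonic day), a rare group of blood-derived cells among the somatic cells. They were chosen by measured values: a barcode with at least 3000 UMIs (unique molecular identifiers, which count captured transcripts) and under 10% of its UMIs from mitochondrial genes counted as somatic when 6 germ cell genes (Dazl, Ddx4, Smc1b, Sycp1, Sycp3, Stra8) summed to under 10 UMIs per 10,000. A somatic cell counted as immune when Ptprc, Cd52, Fcer1g, Tyrobp, Lyz2 and C1qb summed to at least 8 per 10,000 with at least 3 of the 6 detected. This gave 75 immune cells, which were 1.12% (95% Clopper-Pearson interval 0.884 to 1.40) of 6682 somatic cells and came from 29259 barcodes in all. Levels below are UMIs per 10,000 UMIs, summed over the cells of a group unless a level per cell is named.

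The series held 1 droplet library (10x 3′ v3) for each of 2 genotypes. The KO embryos were homozygous for a deletion of exon 3 of Nr3c1, the gene of the glucocorticoid receptor (GR), made from a floxed allele with a β-actin Cre, and the WT embryos carried intact GR. Both libraries came from female E15.5 embryos with the Pou5f1-EGFP (OCT4-GFP) transgene of germ cells, and the strain label of both reads Tg(Pou5f1-EGFP)2Mnn Nr3c1tm1.1Jda. The labels name no hormone or drug. Ovaries were freed of mesonephroi and pooled by genotype, 2 embryos for KO and 4 for WT, and sorted GFP-positive germ cells were mixed with somatic cells at 60 to 40 before capture. The labels call both libraries germ cells, yet somatic cells were in both. The deletion was present in every cell of the KO embryos, so the immune cells and the ovary around them lacked GR together, and an effect within the immune cells cannot be told apart from an effect of their surroundings. With 1 pooled library per genotype there was no replicate check, no test was possible between genotypes, and all intervals cover counting error only.

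The KO library gave 42 immune cells of 4554 somatic cells, or 0.922% (0.665 to 1.24). The WT library gave 33 of 2128, or 1.55% (1.07 to 2.17). The intervals overlapped. With a mitochondrial limit of 5% the shares were 1.41% (0.993 to 1.94) and 3.10% (2.00 to 4.58), and those intervals did not overlap. Since somatic cells were added back after a sort, neither share is the share in the intact ovary. The sum that chose them is given as a description. The lowest immune sums were 8.71 and 11.8 in KO and 16.2 and 26.4 in WT, the medians were 99.0 and 94.8, and the highest were 279 and 318. Among the other somatic cells the highest sums were 5.16 and 3.28 in KO and 1.47 and 1.45 in WT, while 99.2% of them in KO and 98.8% in WT had none of these UMIs. The lowest members, 8.71 and 11.8 in KO and 16.2 and 26.4 in WT, were all cells with mast cell proteases, described below. The depth of a member was 4098 UMIs at the lowest, 7556.5 at the median and 19513 at the highest in KO, and 4558, 11924 and 29196 in WT, close to the medians of the other somatic cells (7853 and 11868).

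**Figure D1:**
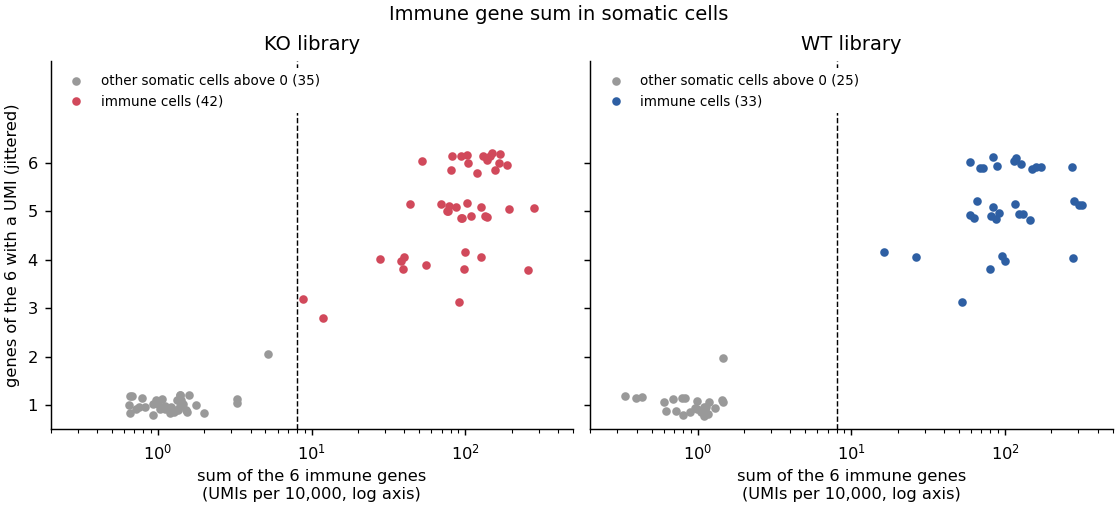
Sum of the 6 immune genes (x axis, UMIs per 10,000, log axis) against how many of the 6 had a UMI (y axis, jittered) in each somatic cell with a sum above 0, KO on the left and WT on the right; the dashed line is the threshold of 8. The 42 KO and 33 WT immune cells lie to the right of the line, and the 35 KO and 25 WT other somatic cells with any immune UMI lie at 5.16 or below.

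Of the barcode sequences, 75 occurred in both libraries, none of them a member in both, and 1 member had its sequence deposited in the other library too. Scrublet, a doublet caller, marked 2 KO members and no WT member. The rule kept the germ sum of members and of other somatic cells under 10. Within that limit the median germ sum was 2.15 in KO and 1.49 in WT members, against 2.03 and 1.49 in the other somatic cells. Apart from the erythroid list in WT, markers of the other classes were low in the immune cells. The 7 erythroid markers summed to 0.730 in KO and 305 in WT against 288 and 285 in the other somatic cells. The 8 pregranulosa markers (the supporting cells of the ovary) summed to 1.68 in KO and 0.964 in WT against 19.5 in the other somatic cells of each library. The 8 stromal markers summed to 0.567 and 0.459 against 11.3 and 12.3, the 6 surface epithelium markers to 0.838 and 0.642 against 6.59 and 5.95, and the 7 endothelial markers to 0.378 and 0.436 against 1.57 and 1.22. Of the defining markers, 1 pregranulosa, 4 stromal, 1 epithelial, 2 endothelial and 5 of 6 perivascular genes had no UMI in any immune cell. These UMIs sat in few cells: 3 KO members and 2 WT members carried 5 or more per 10,000 of pregranulosa, stromal and epithelial markers, up to 27.5 in KO and 22.7 in WT.

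Macrophages seed fetal organs before birth from the yolk sac and the fetal liver, clear dying cells and secrete complement, chemokines and growth factors. They depend on signalling through the receptor encoded by Csf1r, and their identity rests on the transcription factor PU.1 (Spi1). Mast cells carry granules of proteases and histamine and respond to KIT ligand, and neutrophils carry granules of antimicrobial proteins. Glucocorticoids acting through GR restrain inflammatory genes in these cells.

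The promoters of 5 genes are shown because each holds the sequence GAGGAAGT, which has the core that PU.1 binds, within 250 bases before the RefSeq start. They were found among the 82 of 111 named or listed genes higher in immune cells that had a promoter in RefSeq (mouse build GRCm38.p6). A chromosome was left out when the stretches were taken, and any of its genes still count among the 82. Both strands were searched, capitals mark the motif or its complement ACTTCCTC, and each stretch is written 5′ to 3′ on the strand of its gene. None of the 5 stretches overlapped the annotated gene.
C1qc: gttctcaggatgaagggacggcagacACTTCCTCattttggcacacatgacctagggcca
Ctsc: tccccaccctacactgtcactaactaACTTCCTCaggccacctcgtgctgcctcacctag
Pf4: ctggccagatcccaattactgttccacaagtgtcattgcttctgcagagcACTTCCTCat
S100a8: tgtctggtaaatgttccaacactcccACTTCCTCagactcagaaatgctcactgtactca
Spp1: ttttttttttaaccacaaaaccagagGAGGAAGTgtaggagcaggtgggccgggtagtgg
The stretch of C1qc lies at chr4:136893076-136893135 on the minus strand. Those on the plus strand are at chr7:88277908-88277967 for Ctsc, chr5:90772375-90772434 for Pf4, chr3:90668873-90668932 for S100a8 and chr5:104434972-104435031 for Spp1. The motif ended 187 bases before the start in C1qc, 143 in Ctsc, 2 in Pf4, 164 in S100a8 and 105 in Spp1. The sequence occurred in a promoter of 25 of 349 genes that were higher in immune cells and had a promoter (7.16%), of 5 of 411 genes that were lower (1.22%), of 2.68% of 9473 genes compared and of 2.79% of all 27025 genes in the table. A match is a description of the letters and shows no binding.

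Complement, phagocyte and chemokine genes set the immune cells apart from the other somatic cells. In each library, 6 of 6 complement genes and 11 of 11 genes of ITAM receptor signalling with enough counts were at least 4 times higher (log2 ratio of 2 or more in both libraries), against 3.75% of the 12517 genes compared over both libraries. Since the cells were chosen by such genes, these counts describe them and test nothing. The same holds for the counts by list below, where some genes reached the minimum of 100 UMIs only through the immune cells. In all 470 genes were higher, and 571 (4.56%) were lower. Of the 470, 335 had 100 or more UMIs in the other somatic cells alone, and 21 had no UMI in the other somatic cells of at least 1 library.

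Outside the genes of the rule, the 15 leading genes were S100a8, C1qc, Ccl4, C1qa, Ctss, Cxcl2, Cma1, Ccl3, Tpsb2, Ms4a6d, Fcrls, S100a9, Il1b, Adgre1 and Trem2. Some came from few cells: S100a8 and S100a9 were each detected in 2 KO and 4 WT immune cells, Cma1 in 5 and 2 and Tpsb2 in 3 and 3. C1qa, a chain of the complement protein that tags cell debris, had 1298 UMIs in KO and 1344 in WT immune cells and only 12 and 2 UMIs in the other somatic cells. That was a level of 35.1 in KO and 30.8 in WT. C1qc had 751 and 785 UMIs against 6 and 3, a level of 20.3 and 18.0. C1qa, C1qb and C1qc are neighbours on chromosome 4, between 136880129 and 136898803 (GRCm38, minus strand), and all 3 were detected together in 59 cells, while 2 further WT cells held 1 UMI of C1qa each. Ctss, a lysosomal protease of antigen-presenting cells, had 319 and 339 UMIs against 3 and 1. Trem2, a lipid-sensing receptor of macrophages, had 268 and 243 UMIs against 6 and 2, and Adgre1, which encodes the macrophage antigen F4/80, had 46 and 78 against 1 and 1. For C1qa, C1qc, Ctss, Trem2 and Adgre1 the other somatic cells of a library held 12 UMIs or fewer of each gene.

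**Figure D2:**
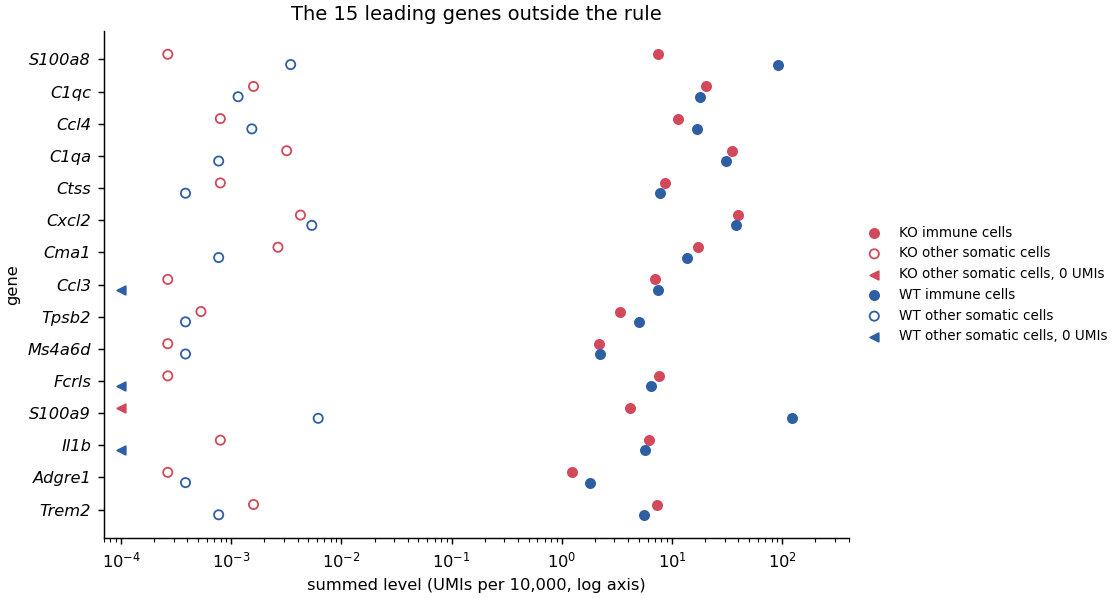
Summed level (x axis, UMIs per 10,000, log axis) of the 15 leading genes (y axis) in immune cells (filled) and other somatic cells (open) of the KO and WT libraries, with triangles at the left edge for genes with 0 UMIs. Every gene lies above 1 in immune cells and below 0.01 in other somatic cells; S100a8 and S100a9 are the genes whose WT and KO immune points lie farthest apart.

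The genes lowest in immune cells included embryonic globins and Col1a1, a marker of the stromal list. Hbb-y, an embryonic globin, had 3 UMIs in KO and 1 in WT immune cells against 70092 and 32726 UMIs in the other somatic cells, and Hba-x, an embryonic globin as well, had 0 and 1. Others among the lowest were Cst12, Col1a1 (a collagen chain), Ptn (the growth factor pleiotrophin), Mfap2 and Mgp, each with 5 UMIs or fewer in the immune cells of a library. Without other somatic cells that carried a haemoglobin sum of 100 or more per 10,000, the log2 ratio of Hbb-y was 0.66 in KO and 0.0081 in WT, on 3 and 1 UMIs, and that of Hba-x was 2.26 in WT.

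Tyrobp and Fcer1g, the adaptors that carry ITAM signals and are genes of the rule, were detected in 75 of 75 cells. Spi1 was detected in 37 of 42 KO cells and 32 of 33 WT cells at levels of 4.54 and 4.36, with log2 ratios over the other somatic cells of 12.06 and 11.47. Csf1r stood at 5.67 in KO and 4.80 in WT and was detected in 36 of 42 and 28 of 33 cells. Cx3cr1, the fractalkine receptor, stood at 10.6 and 8.95 and was detected in 40 of 42 and 28 of 33. Of the ligands of these receptors, Csf1 had 6 UMIs in KO immune cells, a level of 0.162 against 0.0133 in the other somatic cells, and 0 UMIs in WT immune cells, where the other somatic cells stood at 0.0258. Il34 and Cx3cl1 had no UMI in any immune cell, which allows levels of up to 0.0997 in KO and 0.0846 in WT (exact Poisson). Their levels in the other somatic cells were below these limits, at 0.0428 and 0.0404 for Il34 and 0.0205 and 0.0250 for Cx3cl1, so no difference was detectable at this depth. Of 15 haematopoietic transcription factors with enough counts, 11 were higher in immune cells and none was lower. Over all genes compared, 3.75% were higher. Maf stood at 4.43 and 5.44, Irf8 at 2.03 and 1.42 and Mef2c at 4.03 and 4.45. Mef2c was not particular to immune cells: in the 109 KO and 30 WT cells with endothelial markers it stood at 2.72 and 2.95. Fli1 was higher in those endothelial cells, at 0.765 and 1.31, than in immune cells, at 0.378 and 0.390. Sall1 and Spic, factors of microglia and of splenic red pulp macrophages, had no UMI.

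Lysosomal genes were broadly higher. Of 22 lysosomal genes, 17 were higher in immune cells in both libraries and none was lower. Over all genes compared 3.75% were higher and 4.56% lower, the shares to set beside each count in this paragraph. Ctsc, a protease that activates granule proteases, stood at 4.32 in KO and 6.81 in WT, and Ctsb at 16.5 and 16.7, Ctsd at 16.4 and 14.6, Cst3 at 29.1 and 25.1 and Lgmn at 7.84 and 9.09. Of 11 genes for uptake of dying cells and scavenging, 5 were higher and Mfge8, a bridging protein of apoptotic cells, was lower, with 10 and 2 UMIs in the immune cells. The engulfment receptor Mertk stood at 0.540 and 0.528 against 0.0811 and 0.0963 in the other somatic cells, while Axl did not pass the limit at 0.730 and 0.597. Timd4, a phosphatidylserine receptor, had 3 and 2 UMIs, and Marco none. Of 7 genes of haem and iron handling 4 were higher, among them the ferritin light chain Ftl1 with 4639 UMIs in KO and 5345 in WT, a level of 125 and 123. Of 8 genes of the leukocyte cytoskeleton and adhesion 7 were higher, and of 6 innate sensors 5.

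Of 11 chemokine and receptor genes with enough counts, 9 were higher and none was lower. Over all genes compared 3.75% were higher, the share to set beside each count in this paragraph. Genes such as Ccl3 and Ccl4 reached the minimum count only through the immune cells, so the count of 9 describes the cells and tests nothing. Cxcl2, a neutrophil attractant, had 1474 UMIs in KO and 1673 in WT immune cells, a level of 39.8 and 38.4, against 16 and 14 UMIs in all other somatic cells. Ccl4 had 419 and 741 UMIs and Ccl3 had 258 and 322. Cxcl1 stood at 7.05 and 4.80, and Pf4 at 4.62 and 5.53. Of 8 cytokine and receptor genes 4 were higher. Tnf had 210 and 316 UMIs in 34 of 42 KO and 32 of 33 WT cells, and Il1b had 230 and 249 UMIs in 19 and 18 cells. Il6 had 2 UMIs in KO and 0 in WT, Il10 had 1 and 0, and Ifnb1 had none. Of 14 immediate early genes 3 were higher (3.75% over all genes compared), among them Ier3 at 14.4 and 15.4 against 0.908 and 0.820 in the other somatic cells. The tissue was digested with trypsin before sorting, and the part of that step in these levels was not tested.

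Several lists gave few or no UMIs. Of 7 MHC class II genes, H2-Aa and Ciita were at 0, and Cd74 had 21 UMIs in KO and 19 in WT. Of 5 class I genes 3 were higher (3.75% over all genes compared), with B2m at 7.13 and 5.87 against 0.874 and 0.914. Of 13 lymphoid genes in the files, 7 were at 0, and the list summed to 0.513 in KO and 0.482 in WT against 0.175 in the other somatic cells of each library. The 8 progenitor genes summed to 1.73 and 0.941, with 4 at 0. The 8 dendritic cell genes summed to 0.675 and 0.642, with no cell carrying 3 of them. Pf4, which megakaryocytes also make, was the source of nearly all UMIs of the megakaryocyte list, and 4 of that list's 7 genes were at 0. Kitl, the KIT ligand made by the supporting cells, was lower in immune cells at 0.270 and 0.344 against 4.25 and 3.95, and Igf2 and Vegfa were lower too.

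The members divided by 3 sets of genes. The limits between them were set after the values were seen, so the sets are a description. Cells with a summed C1qa, C1qb and C1qc level of 10 or more are called C1q-high and are macrophage-like by their markers. They were 34 of 42 KO cells (81.0%, 65.9 to 91.4) and 25 of 33 WT cells (75.8%, 57.7 to 88.9). Their C1q sums ran from 41.4 to 311 in KO and 46.1 to 189 in WT, and no other member exceeded 0.983. Mast-like cells, with Cpa3, Cma1 and Tpsb2 summing to 10 or more, were 5 of 42 in KO (11.9%, 3.98 to 25.6) and 2 of 33 in WT (6.06%, 0.743 to 20.2). Cells with an S100a8 and S100a9 sum of 100 or more were 1 in KO (2.38%, 0.0603 to 12.6) and 4 in WT (12.1%, 3.40 to 28.2). The remaining 2 KO and 2 WT cells had none of the 3 sets. The intervals of KO and WT overlapped for every set.

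**Figure D3:**
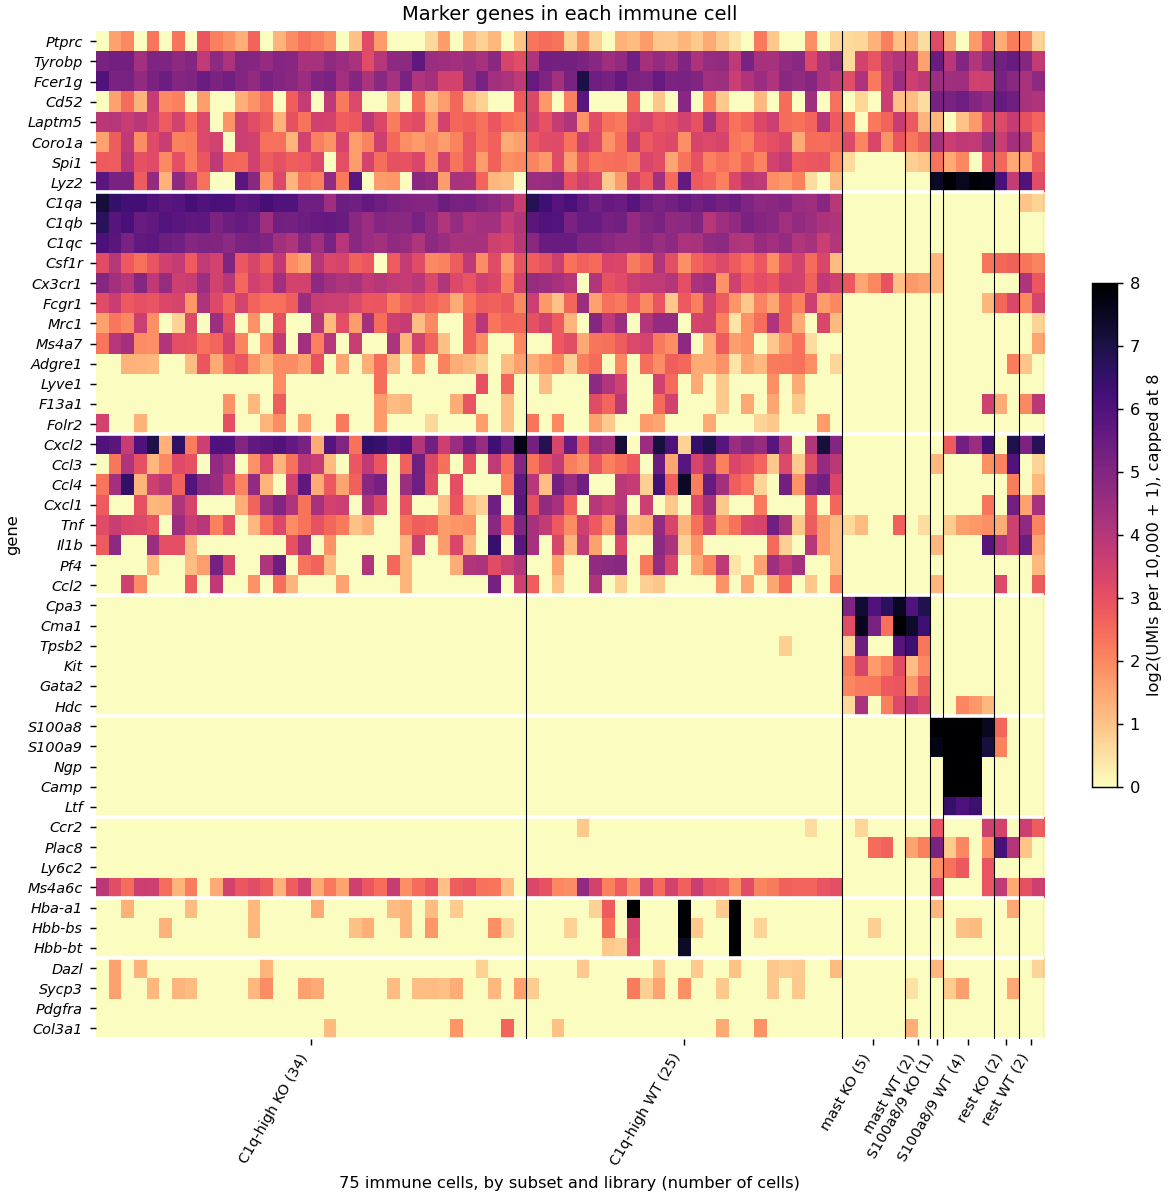
Marker genes (rows) in each of the 75 immune cells (columns, ordered by set and library with the number of cells), coloured by log2 of UMIs per 10,000 plus 1, capped at 8. Tyrobp and Fcer1g are filled across all columns, C1qb and C1qc fill the 59 C1q-high cells, Cma1 is seen only in the 7 mast-like cells, and Ngp, Camp and Ltf only 3 WT cells.

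The C1q-high cells all held the C1q genes and varied in Mrc1, Pf4, F13a1 and Lyve1. The level of C1qa per cell ran from 11.5 to 141 with a median of 41.7, and it was detected in 59 of 59. Csf1r and Cx3cr1 were each detected in 58 of 59 cells, with medians of 6.32 and 12.1. The mannose receptor Mrc1 was found in 47 cells with a median of 4.33 and a highest level of 29.5, Pf4 in 35, F13a1 in 18 and the hyaluronan receptor Lyve1 in 14. All 14 Lyve1 cells also held Mrc1, 10 cells held all 4 genes, and 8 cells held none of them. Over the 59 cells Spearman's rho of the 6 pairs of these genes ran from 0.40 (Mrc1 with F13a1) to 0.63 (Lyve1 with F13a1). It ran from 0.22 to 0.44 in the 34 KO cells and from 0.61 to 0.83 in the 25 WT cells. These are descriptions over cells of 2 libraries of unequal depth, with C1q-high medians of 7346.5 UMIs in KO and 11924 in WT. Over both libraries, the cells with Pf4 had a median of 10395 UMIs and those without had 8614.5. The monocyte receptor Ccr2 was found in 2 of the 59.

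The C1q-high cells also differed in how much chemokine RNA they held. Cxcl2 was detected in 57 of 59 at a median of 40.6 per cell and a highest level of 197. Ccl4 was found in 50 and ranged from 0 to 169, Tnf in 54 from 0 to 40.0, and Il1b in 31 from 0 to 84.4. Of 59 cells, 16 held all 6 of Cxcl2, Ccl3, Ccl4, Cxcl1, Tnf and Il1b, and none held fewer than 1. The cells with all 6 had a median depth of 10682.5 UMIs, the 23 cells with 5 had 7785 and the 14 cells with 4 had 10290.5.

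**Figure D4:**
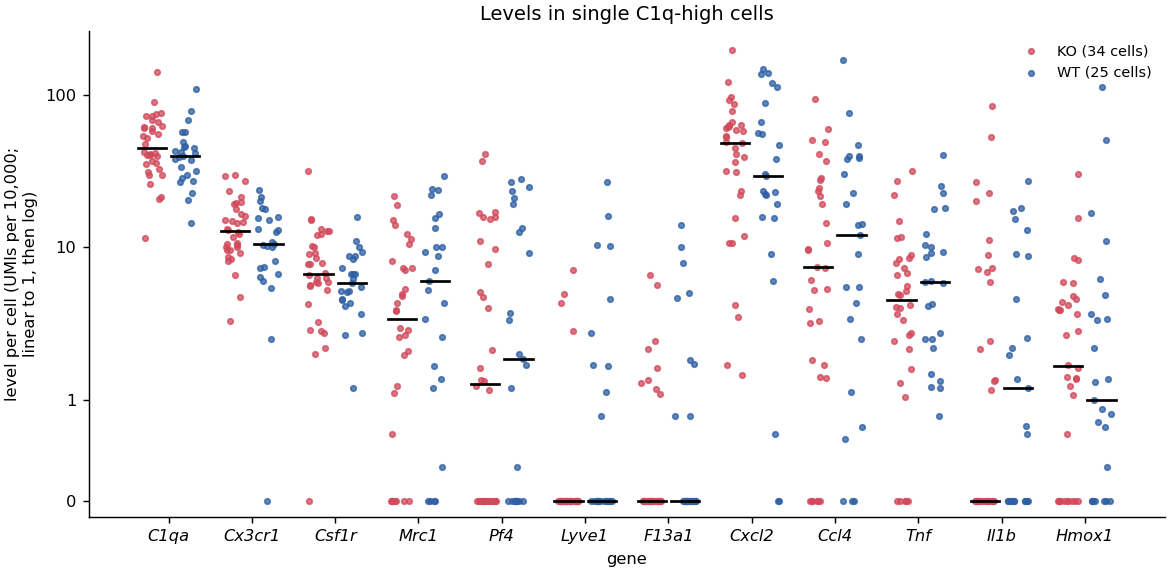
Level per cell (y axis, UMIs per 10,000, linear to 1 and log above) of 12 genes in the 34 KO (red) and 25 WT (blue) C1q-high cells; each point is a cell and each bar the median of a library. C1qa, Cx3cr1 and Csf1r are detected in nearly all cells, while Lyve1 is at 0 in 30 KO and 15 WT cells and Il1b, Ccl4 and Hmox1 range from 0 to over 80 in at least 1 library.

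The mast-like cells held granule genes and none of the C1q genes. Across the 7 cells Cpa3, a granule carboxypeptidase, ran from 32.3 to 177 per cell, and Cma1, the chymase, from 4.26 to 281. Kit, the receptor they depend on, and Gata2, a transcription factor of mast cells, were detected in 7 of 7, and Hdc, which makes histamine, in 6 of 7. Tpsb2 was detected in 5 of 7. Lyz2 and Csf1r were at 0 in all 7, and Fcer1a had no UMI in any immune cell. Cx3cr1 was present, with 28 UMIs in the 5 KO cells (a level of 3.96) and 10 in the 2 WT cells (2.11). The KIT ligand gene stood at 4.25 in KO and 3.95 in WT over the other somatic cells. Of the 7, 1 KO cell was called a doublet by Scrublet, and 1 WT cell carried 22.7 per 10,000 of the markers of other somatic classes.

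The cells rich in S100a8 and S100a9 were of 2 kinds. In 3 WT cells, neutrophil-like by their markers, the sum of both genes was 3061.6, 2771.8 and 3173.5 per 10,000. The same cells held Ngp at 365 to 522, Camp at 321 to 393 and Ltf at 63.6 to 88.4, genes of granules that form after the first ones. Elane and Mpo, genes of the earlier granules, had no UMI in any member. The other 2, with sums of 565.6 in KO and 317.2 in WT, held no Ngp, Camp or Ltf but held Ccr2 at 6.62 and 10.5. Of the 4 remaining cells, 3 held Ccr2, at 9.78, 10.8 and 5.60, and they are left unnamed.

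Haemoglobin transcripts marked 3 WT C1q-high cells. Their sums of haemoglobin genes were 307, 717 and 4086 per 10,000, and no other C1q-high cell exceeded 13.4. No KO member reached 100. In these 3 cells Hba-a1 ran from 250 to 1546, Alas2, an enzyme of haem synthesis in red cell precursors, from 0.666 to 3.08, and embryonic Hbb-y was at 0. Their immune sums were 58.9, 114 and 170, within the range of the other 56. Hmox1, the enzyme that breaks down haem, was 0.343, 4.84 and 50.6 in them against a median of 1.39 and a highest level of 111 in the others. These 3 cells held nearly all UMIs of adult globins in the WT immune cells. There the erythroid list summed to 305, against 0.730 in KO immune cells and 285 in the other WT somatic cells.

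Between genotypes, the targeted gene is given first. Nr3c1 had 10 UMIs in 7 of 42 KO immune cells and 27 UMIs in 17 of 33 WT immune cells, a level of 0.270 (0.130 to 0.497) in KO and 0.620 (0.408 to 0.901) in WT. The log2 ratio of KO over WT was -1.20 (-2.41 to -0.11). In C1q-high cells it stood at 0.143 in KO and 0.617 in WT (log2 ratio -2.11, -4.12 to -0.53), in mast-like cells at 0.849 and 1.05 on 6 and 5 UMIs. It was detected in 16.7% of KO and 51.5% of WT immune cells, against 5.36% and 24.7% of the other somatic cells. With each cell thinned to 3000 UMIs, 4 of 42 KO (9.52%) and 7 of 33 WT (21.2%) immune cells held it, against 2.44% and 8.07%. In the other somatic cells it stood at 0.0704 and 0.263, and in germ cells at 0.115 and 0.716. Its level was lower in KO than in WT in each of these groups, and the intervals of KO and WT overlapped over all immune cells and in the mast-like cells. The counted tags lie at the 3′ end, outside the deleted exon 3, so they do not check the deletion itself.

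Of 2190 genes with at least 50 UMIs over the immune cells, 45 were at least 2 times higher in KO (2.05%) and 41 at least 2 times lower (1.87%), each with an interval that excluded a ratio of 1. The median log2 ratio was 0.13. Because the mix of sets differed between the libraries, the same was done within C1q-high cells, where 25 of 1666 genes were higher (1.5%) and 20 lower (1.2%), with a median of 0.05. Of the 45 higher genes, 27 had 50 UMIs in C1q-high cells, and 17 of these passed the limit there. Of the 41 lower genes, 19 had enough UMIs and 15 passed. Of 13 macrophage genes, 2 were lower in KO past the limit and none was higher, and in C1q-high cells 2 of 12 were lower. Over all immune cells the log2 ratio was 0.19 (0.07 to 0.30) for C1qa, 0.01 (-0.13 to 0.15) for Tyrobp, 0.24 (-0.04 to 0.53) for Csf1r and 0.06 (-0.25 to 0.37) for Spi1. None of 22 lysosomal, 13 ITAM and 5 complement genes with enough UMIs passed the limit in either direction.

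The genes lowest in KO were those of the few WT neutrophil-like and haemoglobin-bearing cells. With KO set to a floor of 3 UMIs for a count of 0, BC100530 (0 and 2297 UMIs) had a log2 ratio of -9.34 or lower, Hbb-bt (0 and 2067) of -9.19 or lower, Ngp (0 and 1379) of -8.61 or lower, Camp (0 and 1048) of -8.21 or lower and Lcn2 (0 and 577) of -7.35 or lower. Hba-a1 had 11 UMIs in KO and 5148 in WT, Hbb-bs 13 and 6000, and Gm5483 2 and 770. Of 5 neutrophil genes with enough UMIs all 5 were lower in KO, against 1.87% of 2190 genes. That list summed to 12.1 in KO against 278 in WT. Without the 3 haemoglobin-bearing cells the log2 ratio was 0.34 for Hba-a1 and 0.43 for Hbb-bs. Anxa1, a glucocorticoid-induced gene in many cells, had 4 UMIs in KO and 145 in WT, but 95.2% of the WT UMIs were in 3 cells, and C1q-high cells held 2 UMIs in KO and 4 in WT. Lyz2 likewise was lower in KO over all immune cells (-0.85) and higher within C1q-high cells (0.58).

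Within C1q-high cells, Spp1, the secreted protein osteopontin, was higher in KO. It had 339 UMIs in 16 of 34 KO cells and 47 UMIs in 8 of 25 WT cells, a log2 ratio of 3.06 (2.62 to 3.53). These were 47.1% and 32.0% of cells at median depths of 7346.5 and 11924 UMIs, against 0.133% and 0.430% of the other somatic cells. At 3000 UMIs per cell, 15 KO (44.1%) and 4 WT (16%) cells held it. Its level reached 83.5 in a KO cell and 15.8 in a WT cell, and 3 cells held 62.8% of the KO UMIs, so the ratio rests on few cells. Id2, an inhibitor of helix-loop-helix factors, had 43 UMIs in KO and 9 in WT (2.47, 1.41 to 3.69). It was found in 44.1% and 20% of these cells, and in 20.6% and 16% when thinned, against 40.4% and 42.7% of thinned other somatic cells. Atf3, a stress-induced repressor of inflammatory genes, stood over all immune cells at 10.6 and 4.84 (1.13, 0.88 to 1.38), and its ratio in C1q-high cells was 1.15. Klf4, with 28 and 10 UMIs (1.72, 0.64 to 2.93), was under the 50-UMI minimum and is given as a value only. Of the 14 immediate early genes, Atf3 was the only 1 of 13 with enough UMIs past the limit, and the median of the list was -0.10. Over all 2190 genes, 2.05% were higher in KO and 1.87% lower.

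Of the 13 macrophage genes with enough UMIs, Lyve1 and F13a1 (a coagulation factor subunit) were lower in KO. Lyve1 had 23 UMIs in 4 of 34 KO and 99 UMIs in 10 of 25 WT C1q-high cells, a log2 ratio of -1.90 (-2.62 to -1.23). These were 11.8% and 40% of cells, against 0.222% and 0.334% of the other somatic cells. At 3000 UMIs per cell, 3 KO (8.82%, 1.86 to 23.7) and 8 WT (32.0%, 15.0 to 53.5) cells held it. F13a1 had 19 UMIs in KO and 92 in WT over all immune cells (-2.04, -2.84 to -1.32), and its ratio in C1q-high cells was -1.50. Mrc1 stood at 3.81 and 5.87 (-0.62, -0.93 to -0.32) and Stab1 at 2.13 and 3.30 (-0.63, -1.04 to -0.22), short of the limit, as was Pf4 (-0.26, -0.55 to 0.03). None of 7 genes for uptake of dying cells and scavenging passed the limit, with a median of -0.11. The chemokine Ccl9 was lower as well, with 14 and 45 UMIs (-1.45, -2.43 to -0.56). Cells with Pf4, Mrc1, Lyve1 and F13a1 together numbered 2 of 34 in KO and 8 of 25 in WT, at median depths of 12638.5 and 11920.5 UMIs. The medians of all C1q-high cells were 7346.5 and 11924 UMIs, so these counts were not taken at equal depth. In WT, 3 cells held 74.7% of the Lyve1 UMIs. Cd72 and Bcl2a1a were lower too, with 8 and 43 UMIs and 5 and 46 UMIs in C1q-high cells. In WT, 3 cells held 83.7% of the Cd72 UMIs and 86.0% of the Bcl2a1a UMIs.

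**Figure D5:**
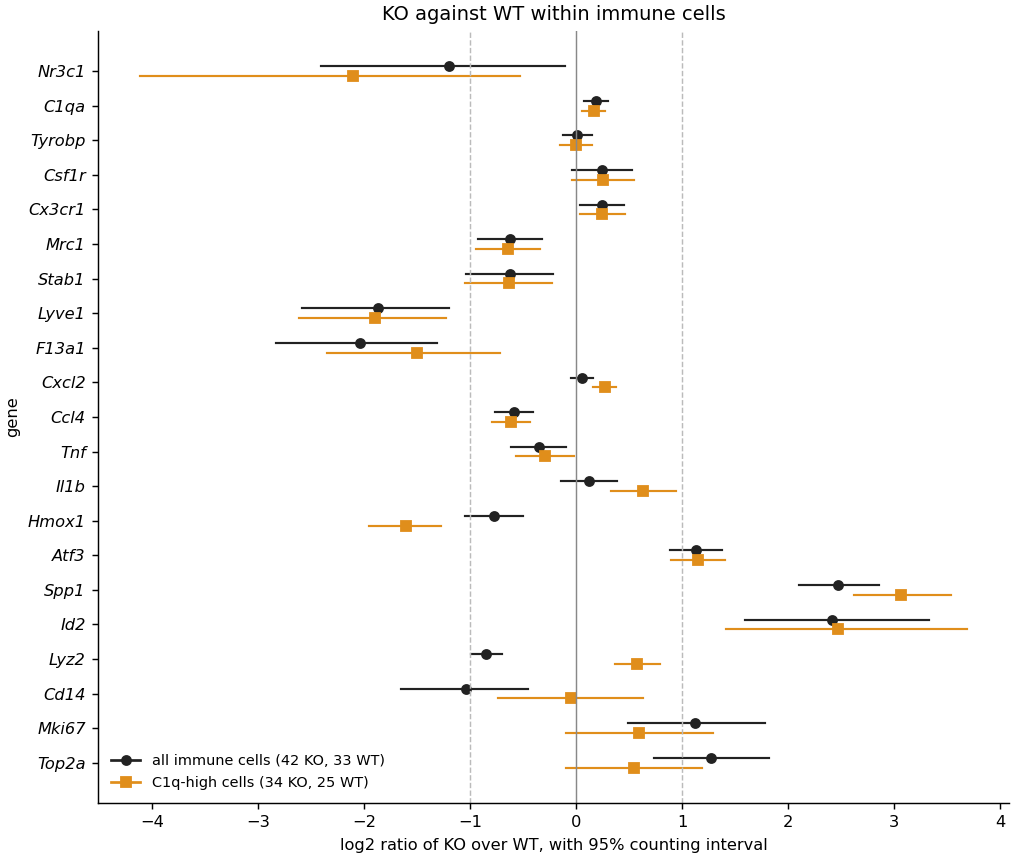
Log2 ratio of KO over WT (x axis) with its 95% counting interval for 21 genes (y axis), over all immune cells (black circles, 42 KO and 33 WT) and C1q-high cells (orange squares, 34 and 25); dashed lines mark a factor of 2. Spp1, Id2 and Atf3 lie to the right in both, Nr3c1, Lyve1 and F13a1 to the left in both, and Lyz2 lies at -0.85 over all cells and at 0.58 in C1q-high cells.

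Of 12 chemokine genes with enough UMIs, Ccl9 was the only one past the limit, and of 6 cytokine genes none was. Over all 2190 genes, 2.05% were higher in KO and 1.87% lower. Counts this small cannot set these lists apart from that share. Over all immune cells the log2 ratio was 0.05 (-0.05 to 0.16) for Cxcl2, -0.59 (-0.76 to -0.41) for Ccl4, -0.35 (-0.61 to -0.10) for Tnf and 0.12 (-0.14 to 0.39) for Il1b, all short of a factor of 2. In C1q-high cells Cxcl1 was at 0.66 (0.37 to 0.95), Il1b at 0.63 (0.33 to 0.94) and Ccl4 at -0.62 (-0.79 to -0.44). Among genes induced by glucocorticoids, Tsc22d3 stood at 0.459 in KO and 0.505 in WT, Dusp1 at 3.76 and 4.89, and Zfp36 at 5.19 and 6.17. Nfkbia had 740 and 943 UMIs (-0.11, -0.25 to 0.03). Fkbp5 had 6 UMIs in KO and 2 in WT, and was lower in immune than in other somatic cells. Klf9 had no UMI in either library, and Cd163, a classic glucocorticoid-induced receptor of macrophages, had 0 and 1. Of the 5 genes of this list with enough UMIs only Anxa1 passed the limit, and the median was -0.38. Hmox1 had 166 and 335 UMIs (-0.78, -1.05 to -0.50), with 55.5% of the WT UMIs in 1 cell. In C1q-high cells Hmox1 (-1.61, -1.96 to -1.28) and the iron exporter Slc40a1 (-1.10, -1.80 to -0.44) were lower in KO past the limit. For Hmox1 that ratio rests on few cells: 3 WT cells held 83.6% of the UMIs of all WT immune cells, the highest at 111 per 10,000 and a haemoglobin-bearing cell at 50.6, while the median per C1q-high cell was 1.65 in KO and 1.00 in WT. Cd14, a receptor for bacterial lipopolysaccharide, was at -1.04 (-1.66 to -0.46) over all immune cells and at -0.05 (-0.74 to 0.63) in C1q-high cells.

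Cells with both Mki67 and Top2a, markers of dividing cells, were 9 of 42 in KO (21.4%, 10.3 to 36.8) and 3 of 33 in WT (9.09%, 1.92 to 24.3), against 11.0% and 11.1% of the other somatic cells. At 3000 UMIs per cell they were 7 (16.7%) and 2 (6.06%), against 6.07% and 5.97%. In the C1q-high set they were 6 of 34 and 3 of 25, and 3 and 1 when thinned. Of 8 cell cycle genes with enough UMIs 4 were higher in KO over all immune cells (Mki67, Top2a, Ube2c and Birc5), against 2.05% of 2190 genes. Of 4 in C1q-high cells none passed, with a median of 0.42. The histone genes Hist1h1b (173 and 20 UMIs), Hist1h2ap (128 and 29) and Hist1h2ae (59 and 19) were among the 8 highest in KO, with 85.0% of the KO UMIs of Hist1h1b in 3 cells. In C1q-high cells these histone genes passed the limit too, at 2.26 (1.55 to 3.05), 1.48 (0.84 to 2.16) and 1.52 (0.72 to 2.37), with UMIs in 3 to 5 KO cells and 2 to 4 WT cells. Plac8, also among the 8, had 90 and 19 UMIs and none in C1q-high cells, with 86.7% of the KO UMIs in 3 cells. Ifi27l2a had 106 and 34 UMIs (1.88, 1.31 to 2.48), with a ratio of 0.91 in C1q-high cells and 63.2% of the KO UMIs in 3 cells. Cdkn1c had 80 and 25 UMIs (1.91, 1.25 to 2.62), but 91.3% of the KO UMIs were in 3 cells, and its ratio was -0.075 without the members that carried 5 or more per 10,000 of markers of other classes. In C1q-high cells H19 (55 and 9 UMIs), S100a11 (43 and 11), Gm8730 (41 and 16) and Anapc5 (38 and 15) were higher in KO and Erdr1 (14 and 58) was lower, while Gm8730 also stood at 1.71 and 0.446 in the other somatic cells, and 80.3% of the H19 UMIs of all KO immune cells were in 3 cells.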

How the data were processed

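Droplet 3′ libraries of 1 KO and 1 WT pool of ovaries were measured. The authors made the deposited UMI counts per gene and barcode with Cell Ranger (3.0.2 in the matrix header; mm10 per the labels), and their submission notes also name Seurat 3.2.3. From the counts, cells were chosen by the limits in the report, UMIs were summed per group and library, and levels were set per 10,000 UMIs. Ratios carry exact conditional (Clopper-Pearson) intervals for 2 Poisson counts, levels exact Poisson intervals and shares exact binomial intervals, all at 95%. A gene at 0 was set to a floor of 3 UMIs. UMIs limit PCR copies, yet intervals cover counting error only. Genes needed 100 UMIs over somatic cells and a log2 ratio of 2 in both libraries, or 50 UMIs over immune cells and a log2 ratio of 1 between genotypes.

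Genes were named by rule: the 15 highest and 8 lowest against other somatic cells outside the 12 genes of the rule, the 8 largest in each direction between genotypes, and members of gene lists. Of the genes this rule gives, 1 is not reported here. The members, the lists and the limits were chosen with earlier results of these data known. The Leiden clusters that had been planned were replaced by limits on marker sums, set after the values were seen, because 16 settings gave 4 to 10 clusters, the mast-like cells formed a cluster alone in 2 of 16, and cells high in S100a8 and S100a9 shared a cluster with other members in 16 of 16. Genes of the C1q-high comparison, and other genes such as Anxa1, Klf4, Ccl9 and Lyz2, were named from the lists or by the same rule within that set.

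Doublets were called with Scrublet (scanpy 1.11.5, expected rate 8%), which marked 7.71% of KO and 3.26% of WT barcodes, and were kept in the values of the report. Thinning drew 3000 UMIs per cell without replacement, and no cell was shallower. The ratio script was tested on simulated data. Gene positions are from the GENCODE annotation of GRCm38 and promoters from RefSeq (GRCm38.p6). Python 3.11.15, numpy 2.4.6, scipy 1.17.1 and pandas 2.3.3 were used. Alternatives were other limits on cells and on the immune and germ sums, removal of doublets, other totals, thinning, a mean over cells, no minimum count, and subsets of members.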

Additional observations from a re-analysis of the deposited data

Results flagged for a closer look

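Some barcodes outside the comparisons carried the immune signal. Of barcodes under 3000 UMIs, 8 in KO (662 to 2226 UMIs) and 10 in WT (546 to 1911 UMIs) had an immune sum of 8 or more with at least 3 of the 6 genes, from 44.4 to 408 per 10,000 in KO and from 31.4 to 348 in WT. In KO 4 of them were C1q-high, 1 was high in S100a8 and S100a9, and 3 had none of the sets, and in WT 4 were C1q-high and 6 had none.

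In KO, 8 of 11329 barcodes with a germ sum of 10 or more carried it too, or 0.0706%, against 2 of 7384 in WT, or 0.0271%. The difference was not tested. The 8 had 7241 to 25493 UMIs with a median of 19803.5, where germ cell barcodes of that library had a median of 11851, and germ sums of 29.8 to 115. Of these 8, 7 were C1q-high and 3 were called doublets by Scrublet.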

How the results depend on the processing

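No paired analysis was possible because each genotype had 1 library, and no library could be left out for the same reason. Of 132 alternative values of the main shares, counts and ratios, 121 kept their direction and size, and 11 moved. With a mitochondrial limit of 5%, the share of immune cells was 1.41% in KO and 3.10% in WT. With each cell thinned to 3000 UMIs, 19 genes were higher and 17 lower in KO, and 255 were higher and 190 lower in immune cells, since fewer genes reached the minimum count. With no minimum count, 1058 were higher and 622 lower in KO, and 772 higher in immune cells. In C1q-high cells alone, chosen after seeing the data, 25 were higher and 20 lower in KO. The log2 ratio of Nr3c1 was negative under every alternative run, from -0.91 to -2.11.

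Single genes reversed as follows. With the cell limits of the study the log2 ratio of WT immune over other somatic cells was 0.072 for Hbb-y and 2.29 for Hba-x, with at most 1 UMI of each in the immune cells. Without red cells among the other somatic cells, chosen after seeing the data, Hbb-y was at 0.66 in KO and 0.0081 in WT and Hba-x at 2.26 in WT. Without the haemoglobin-bearing members, KO over WT was 0.34 for Hba-a1 and 0.43 for Hbb-bs, and without members with markers of other classes it was -0.075 for Cdkn1c. The immune cells held 370099 UMIs in KO and 435826 in WT, from 1 library each, with no replicate.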
